A study of Rattus norvegicus with 6 samples.

Results

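Aminoacyl-tRNA synthetases, the enzymes that attach each amino acid to its tRNAs, were measured in cultured muscle-derived stem cells of male rats. The members were chosen by gene symbol: probe sets whose only annotated gene was a cytosolic synthetase (Aars1 to Yars1, Eprs1, Farsa, Farsb) or a mitochondrial one, whose symbol ends in 2. They came to 34 of the 18166 genes that the platform annotation named through a probe set of their own, 19 cytosolic and 15 mitochondrial. Each was read by 1 probe set, and all 34 lay above the signal filter that 11540 genes passed, a mean log2 signal of at least 6.74.

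The series held 6 Affymetrix Rat Gene 2.0 ST arrays, 1 for each group. The cholesterol library came from cells that received cholesterol at 100 mg/dl, carried by cyclodextrin. The library titled fatty acid stands beside a protocol that names sodium palmitate and gives no dose. Of the other 4 libraries, 1 each was titled OZ serum, LZ serum, high glucose control and low glucose control, and the titles OZ and LZ are used as given. All cells were isolated by plating and kept in flasks or 6-well plates. The labels tie neither control to a treatment and do not say whether the controls held cyclodextrin, so each lipid library was set against both. With no replicate in any group, every difference below describes these libraries, has no error and was not tested.

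Each synthetase reads the anticodon or other identity bases of its tRNAs and joins the matching amino acid to them, and the charged tRNAs then feed the ribosome. Nuclear genes encode a cytosolic set and a largely separate mitochondrial set, while Gars1 and Kars1 each supply both compartments. In the cytosol several of the enzymes are held in a multisynthetase complex on the scaffold proteins Aimp1, Aimp2 and Eef1e1. Many cytosolic synthetase genes are targets of ATF4, a transcription factor translated when amino acids run short, which binds the amino acid response element in their promoters.

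Promoters are shown first, because a motif in them differs between the cytosolic and the mitochondrial genes and owes nothing to the array values. RefSeq windows on the GRCr8 build ran from 250 bases before to 50 bases after the annotated start. Such windows were found for 32 of the 34 members, 17 cytosolic and 15 mitochondrial, and not for Gars1 and Rars1. In most members, among them Aars1, Cars1, Iars1, Mars1, Eprs1, Cars2, Rars2 and Hars2, the start used was not the outer end of the RefSeq gene. Among the mitochondrial members it was that end only in Aars2, Mars2 and Sars2. The matches, positions and distances given here hold for the starts used. The core letters of the amino acid response element, TGATGNAA, were searched on both strands. They stood in 7 of the 17 cytosolic windows (41.2%), in 0 of the 15 mitochondrial windows and in 3.98% of the 33469 windows of all genes. The 7 also held the narrower TGATGCAA, letters chosen after the matches were seen, which 0.795% of all windows held. The 7 stretches below, each read along its gene's strand, have the match in capitals, and TTGCATCA is TGATGCAA read on the other strand.
Aars1, chr19:55908349-55908398, plus strand: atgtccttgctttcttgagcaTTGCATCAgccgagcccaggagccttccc
Cars1, chr1:208225324-208225373, minus strand: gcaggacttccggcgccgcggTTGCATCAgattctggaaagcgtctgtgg
Iars1, chr17:15193648-15193697, minus strand: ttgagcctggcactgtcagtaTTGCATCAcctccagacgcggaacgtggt
Mars1, chr7:65023742-65023791, minus strand: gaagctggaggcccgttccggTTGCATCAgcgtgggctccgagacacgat
Nars1, chr18:60275768-60275817, minus strand: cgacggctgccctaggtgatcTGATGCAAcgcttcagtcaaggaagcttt
Tars1, chr2:62114801-62114850, minus strand: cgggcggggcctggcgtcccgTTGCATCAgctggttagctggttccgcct
Yars1, chr5:146820180-146820212, plus strand: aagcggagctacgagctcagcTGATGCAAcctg

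The first base of the match lay 14 to 27 bases before the start in Nars1, Mars1, Iars1 and Tars1. It lay 112 bases before the start in Aars1, whose window held another TGATGNAA match 10 bases after the start. In Cars1 and Yars1 it lay 18 and 39 bases after the start. The E-box CACGTG, the site of MYC and related factors, was found in 5 of 17 cytosolic windows, 1 of 15 mitochondrial windows and 6.42% of all windows. The NRF1 motif, of a factor known for nuclear genes of mitochondria, stood in 3 cytosolic and 2 mitochondrial windows and in 4.25% of all. Both of these motifs were added after earlier results were seen. A match describes the letters of a window and not the binding of a factor.

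**Figure D1:**
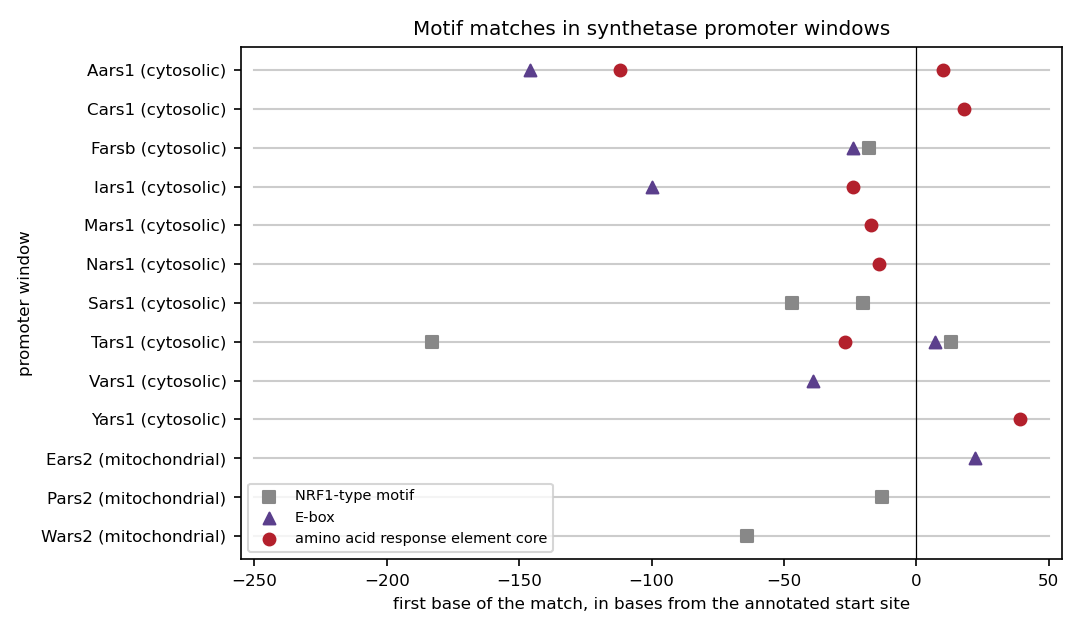
Position of each motif match in the promoter windows that held any, in bases from the annotated start site (0), for cytosolic genes (above) and mitochondrial genes (below). Red circles mark TGATGNAA, found in 7 cytosolic and 0 mitochondrial windows; purple triangles mark CACGTG and grey squares the NRF1 motif.

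The promoter windows of the histidyl pair overlap. Hars1 and Hars2 encode the cytosolic and the mitochondrial histidyl-tRNA synthetase and run in opposite directions from starts 144 bases apart, so that their windows have 243 bases in common. The window of Hars2, on the plus strand, is printed because both genes are described below; the capitals mark the stretch between the Hars1 and Hars2 starts, of which 55.2% is G or C.
Hars2, chr18:28672606-28672905, plus strand: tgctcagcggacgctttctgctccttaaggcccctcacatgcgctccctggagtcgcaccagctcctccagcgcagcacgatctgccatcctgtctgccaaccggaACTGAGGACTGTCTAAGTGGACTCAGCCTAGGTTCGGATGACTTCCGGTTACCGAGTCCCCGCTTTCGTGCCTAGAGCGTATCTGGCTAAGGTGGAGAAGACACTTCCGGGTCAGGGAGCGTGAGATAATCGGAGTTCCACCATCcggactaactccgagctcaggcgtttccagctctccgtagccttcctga

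The cultures were checked against cell type markers. Of 12 muscle stem and progenitor markers, 7 passed the signal filter. The satellite cell marker Pax7 had log2 signals of 6.90 to 7.26 over the 6 libraries, close to the filter, and the myogenic factors Myf5, Myod1 and Myog lay below it. The mesenchymal markers Thy1 (13.17 to 13.51) and Vim (13.72 to 13.79) were bright, and 8 of 8 mesenchymal markers passed. With fatty acid 6 of these 8 lay below both controls, with a median of -0.61, among them the receptor Pdgfrb (-0.84) and the collagen Col1a1 (-0.67). With cholesterol 6 did, with a median of -0.11. Of all genes that passed the filter, 39.7% lay below both controls with fatty acid and 33.6% with cholesterol. All 3 smooth muscle markers lay below both controls with fatty acid. Their log2 differences were -0.85 for Myh11, -0.86 for Smtn and -0.04 for Tagln. Of the 7 muscle stem and progenitor markers that passed, 5 lay below both controls with fatty acid and 2 above, with a median of -0.18. Among them Ncam1 had a difference of -0.90 and Pax7 one of 0.22. Of 7 macrophage markers 2 passed, and the leukocyte antigen Ptprc stayed at 5.42 to 5.59. The mean of the macrophage list was 6.70 in the cholesterol library, 6.21 in the fatty acid library and 6.28 to 6.39 in the other 4. Cd68, a lysosomal protein abundant in macrophages, had log2 signals of 8.37 in the cholesterol library and 7.21 in the fatty acid library, against 6.81 and 6.77 in the high and low glucose controls. Cd14, the other macrophage marker that passed, had 10.13 with cholesterol and 8.41 with fatty acid, against 9.62 and 9.01 in the high and low glucose controls. The part of these markers in the synthetase differences was not tested. In RNA from a whole culture, fewer cells of a type and less RNA per cell cannot be told apart.

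Mean log2 signals ran between 10.05 and 11.85 over the cytosolic probe sets and between 7.35 and 8.80 over the mitochondrial ones. Probe sets differ in how they hybridise, so these are not compared as RNA levels. Over the 6 libraries the log2 signal of a cytosolic enzyme spanned 0.22 to 0.89 with a median of 0.47, and that of a mitochondrial enzyme 0.21 to 0.97 with a median of 0.42. The median span of all genes that passed the filter was 0.41. Within the 4 libraries without added lipid the medians were 0.22 for cytosolic enzymes, 0.24 for mitochondrial enzymes and 0.23 for all genes. The synthetases thus varied about as much as other genes, and the 2 sets differed in where their extremes lay. The cholesterol library held the lowest signal of 13 of 19 cytosolic enzymes, against 17.5% of all genes, and the low glucose control held the highest of 12, against 17.7%. For the mitochondrial enzymes the highest signal lay in the cholesterol library for 6 and in the fatty acid library for 5 of 15, against 22.6% and 30% of all genes, and the OZ serum library held the lowest of 8, against 20%.

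**Figure D2:**
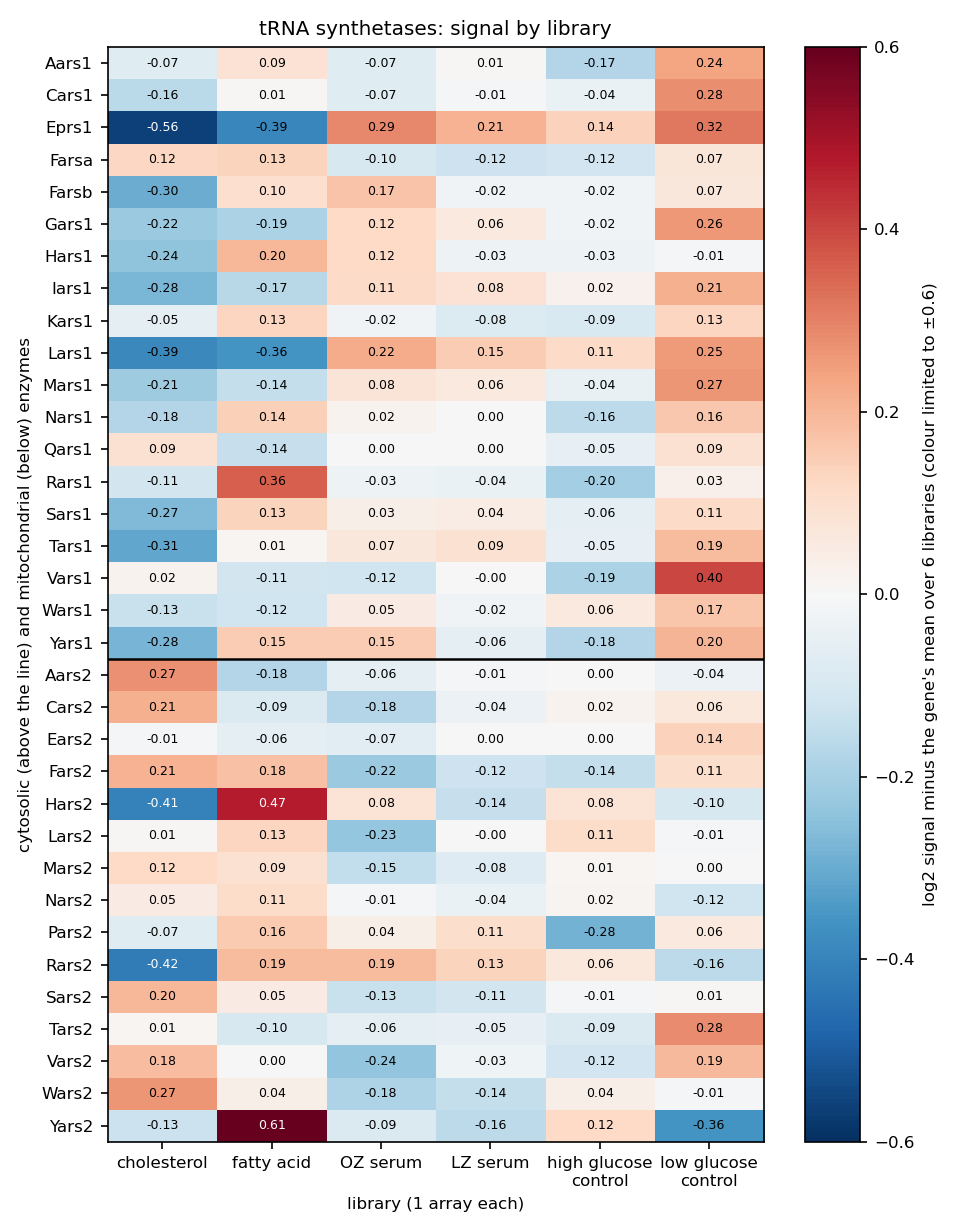
Log2 signal of each synthetase minus that gene's mean over the 6 libraries, 1 array per column, cytosolic enzymes above the line and mitochondrial enzymes below it. Most cytosolic rows are blue (low) under cholesterol and red (high) under the low glucose control, while Hars2, Rars2 and Yars2 are highest or near highest under fatty acid.

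The first comparison asked how the synthetases stood in the cholesterol library. A gene counted as lower when its signal was below both controls, and its difference was then taken from the nearer control; with signals between the controls the difference was 0. In the cholesterol library 13 of 19 cytosolic enzymes lay below both glucose controls and 2 lay above both, with a median log2 difference of -0.17. Over all genes that passed the filter, 33.6% lay below both controls and 36.3% above both. Every cytosolic enzyme was lower in the high than in the low glucose control, so for this set below both meant below the high one. Of all genes, 47.6% lay below the high glucose control. Of the 15 mitochondrial enzymes 3 lay below both controls and 7 above both, with a median of 0.00. No synthetase differed by 2-fold, a size that 1.19% of all genes reached in either direction. At 1.5-fold, where 2.04% of all genes were lower, Eprs1 was the only member.

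Eprs1, the joint enzyme for glutamate and proline, had log2 signals of 10.95 in the cholesterol library and 11.12 in the fatty acid library. It had 11.80 in the OZ serum and 11.72 in the LZ serum library, and 11.65 and 11.83 in the high and low glucose controls. Both lipid libraries thus lay below the 4 others. The log2 difference of the cholesterol library was -0.70 from the high and -0.89 from the low glucose control, and that of the fatty acid library -0.53 and -0.71.

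Lars1, the cytosolic leucyl enzyme, which also takes part in leucine sensing by mTORC1, had 10.35 in the cholesterol library and 10.38 in the fatty acid library. Its signals were 10.96 in the OZ serum library, 10.89 in the LZ serum library, 10.85 in the high glucose control and 10.99 in the low glucose control. As with Eprs1, the lipid libraries stood apart from all 4 others, and the differences from the nearer control were -0.50 for cholesterol and -0.47 for fatty acid. Iars1, the isoleucyl enzyme, had 10.69 with cholesterol, 10.80 with fatty acid, 11.08 with OZ serum and 11.05 with LZ serum, against 10.99 and 11.18 in the high and low glucose controls. It too was lower with both lipids, with log2 differences of -0.31 for cholesterol and -0.19 for fatty acid. These 3 belong to the multisynthetase complex, of whose 7 enzymes 4 lay below both controls with cholesterol, 1 above (Qars1, at 0.00 after rounding) and 2 between them (Kars1 and Rars1).

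**Figure D3:**
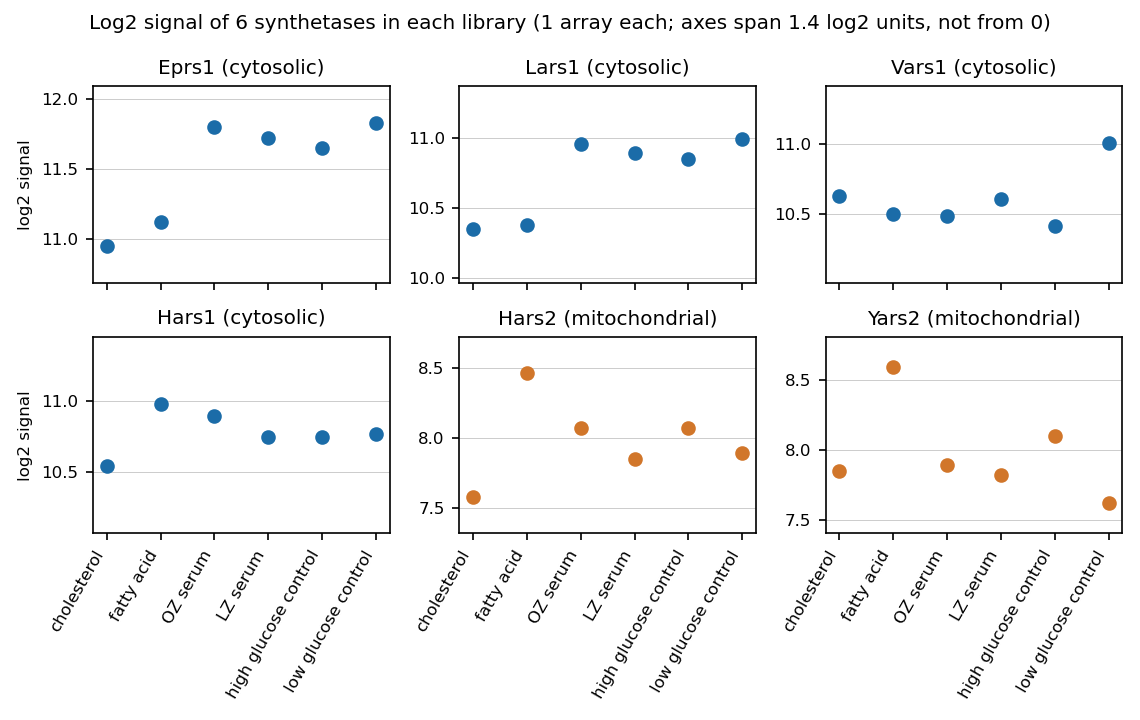
Log2 signal of 6 synthetases in each library, 1 array per point, on axes of equal span that do not start at 0. Eprs1 and Lars1 are low in both lipid libraries, Vars1 is highest in the low glucose control, and Hars1, Hars2 and Yars2 are highest with fatty acid.

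A further group was low with cholesterol and not with fatty acid. Farsb, the beta subunit of the phenylalanyl enzyme, had 9.96 with cholesterol, against 10.36 with fatty acid, 10.43 with OZ serum, 10.24 with LZ serum and 10.24 and 10.33 in the high and low glucose controls. Its partner Farsa, the alpha subunit, did not share this: its cholesterol signal of 10.39 and fatty acid signal of 10.40 were above the 10.15 and 10.34 of the high and low glucose controls. Tars1, the threonyl enzyme, had 10.67 with cholesterol, 10.99 with fatty acid, 11.05 with OZ serum and 11.07 with LZ serum, against 10.93 and 11.17 in the high and low glucose controls. Sars1, the seryl enzyme, had 11.27 with cholesterol, 11.67 with fatty acid, 11.57 with OZ serum and 11.58 with LZ serum, against 11.48 and 11.65 in the high and low glucose controls. For Farsb, Tars1 and Sars1 the cholesterol library was the lowest of the 6.

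The enzymes that serve both compartments were split. Gars1, the glycyl enzyme, had 11.63 with cholesterol, 11.66 with fatty acid, 11.97 with OZ serum and 11.91 with LZ serum, against 11.83 and 12.11 in the high and low glucose controls. Kars1, the lysyl enzyme, had 11.30 with cholesterol, 11.48 with fatty acid, 11.33 with OZ serum and 11.27 with LZ serum, against 11.26 and 11.48 in the high and low glucose controls. Gars1 was thus below both controls in both lipid libraries, and Kars1 lay between the controls with cholesterol.

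Among the mitochondrial enzymes Hars2 and Rars2 were lowest with cholesterol, and Aars2, the alanyl enzyme, was highest. Aars2 had 8.25 with cholesterol, 7.80 with fatty acid, 7.92 with OZ serum and 7.97 with LZ serum, against 7.98 and 7.94 in the high and low glucose controls. The tryptophanyl, seryl and cysteinyl enzymes Wars2, Sars2 and Cars2 were also highest with cholesterol, by 0.24, 0.19 and 0.15 over the nearer control. These differences are smaller than those of Eprs1 and Lars1.

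The fatty acid library, compared in the same way with the same 2 controls, gave no common direction for the cytosolic set. In it 7 cytosolic enzymes lay below both controls and 6 above, with a median of 0.00, while 39.7% of all genes lay below and 40.4% above. Of the mitochondrial enzymes 4 lay below and 9 above, with a median of 0.04. None reached 2-fold, which 2.65% of all genes did. Against the low glucose control alone 13 of 19 cytosolic enzymes were lower in the fatty acid library (50.5% of all genes), and against the high glucose control alone 7 were (48.9% of all genes), so the count turned on the control chosen.

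The cytosolic arginyl and histidyl enzymes were the members of their set highest above both controls in the fatty acid library. Rars1, the cytosolic arginyl enzyme, had 10.46 with cholesterol, 10.93 with fatty acid, 10.54 with OZ serum and 10.53 with LZ serum, against 10.37 and 10.60 in the high and low glucose controls. Hars1 had 10.54 with cholesterol, 10.98 with fatty acid, 10.90 with OZ serum and 10.75 with LZ serum, against 10.75 and 10.77 in the high and low glucose controls. Fatty acid was the highest library for both genes, by 0.32 and 0.21 in log2 over the nearer control. Yars1, the cytosolic tyrosyl enzyme, had 10.64 with cholesterol, 11.07 with fatty acid, 11.07 with OZ serum and 10.86 with LZ serum, against 10.74 and 11.12 in the high and low glucose controls, so its fatty acid signal lay between the controls.

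The mitochondrial tyrosyl, histidyl and arginyl enzymes had the largest differences between the cholesterol and fatty acid libraries of all 34 members. Yars2 had 7.85 with cholesterol, 8.59 with fatty acid, 7.89 with OZ serum and 7.82 with LZ serum, against 8.10 and 7.62 in the high and low glucose controls. Hars2 had 7.58 with cholesterol, 8.46 with fatty acid, 8.07 with OZ serum and 7.85 with LZ serum, against 8.07 and 7.89 in the high and low glucose controls. Rars2 had 7.93 with cholesterol, 8.54 with fatty acid, 8.54 with OZ serum and 8.48 with LZ serum, against 8.41 and 8.19 in the high and low glucose controls. The fatty acid library was highest for Yars2 and Hars2, by 0.49 and 0.39 over the nearer control, and the cholesterol library was lowest for Hars2 and Rars2. For Yars2 the controls themselves differed by 0.48, high over low.

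Set directly against each other, the lipid libraries differed in the same direction for most cytosolic enzymes. In the cholesterol library 17 of 19 were lower than in the fatty acid library, with a median of -0.17 and a range of -0.47 to 0.23. Over all genes 48% were lower and 51.9% higher. The exceptions were Qars1, the glutaminyl enzyme (0.23), and Vars1, the valyl enzyme (0.13). Of the mitochondrial enzymes 6 were lower and 9 higher, with a median of 0.04. Hars2 (-0.88), Yars2 (-0.74) and Rars2 (-0.61) were the members lower by 1.5-fold, as were 4.31% of all genes, and 2-fold was reached by no synthetase and by 2.82% of all genes.

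The cytosolic synthetases fall into classes I and II by the fold of their catalytic domain. All 9 class II members were lower in the cholesterol than in the fatty acid library, with a median of -0.32, and 7 of 9 class I members were, with a median of -0.07, where 48% of all genes were lower. With fatty acid against both controls, 1 class II member was lower and 5 were higher, with a median of 0.00. These 5 were Hars1 at 0.21, Farsa at 0.05, Farsb at 0.03, Sars1 at 0.02 and Kars1 at 0.00 after rounding. In class I 5 members were lower and 1 was higher, with a median of -0.10, out of 9 in each class. Of all genes 39.7% were lower and 40.4% higher. Eprs1 holds a catalytic domain of each class and was counted in neither.

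The synthetases usually described as ATF4 targets were followed as a list of 11. In the cholesterol library 10 of these lay below both controls, with a median of -0.18, and 3 of the other 8 cytosolic enzymes did (37.5%), against 33.6% of all genes. For these enzymes below both meant below the high glucose control, where 47.6% of all genes lay. All 11 were lower with cholesterol than with fatty acid (median -0.17), as were 6 of the other 8 (median -0.11). The 7 genes with the motif are all on this list and make up 70% of its 10 members with a window. Between the 7 cytosolic genes with the motif and the 10 without it, the median difference of cholesterol from both controls was -0.12 with it and -0.20 without it, and 6 of 7 and 6 of 10 lay below both controls. For cholesterol against fatty acid the medians were -0.17 with the motif and -0.10 without it, with 7 of 7 and 8 of 10 lower, and for high against low glucose they were -0.31 and -0.16, with all 17 lower.

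Other amino acid response genes, most of them ATF4 targets, were followed as well. Of 23 amino acid response genes that passed the filter, 20 lay below both controls in the cholesterol library (median -0.51) and 17 in the fatty acid library (median -0.54). Of all genes 33.6% lay below both controls with cholesterol and 39.7% with fatty acid. Asns, asparagine synthetase, had 10.35 with cholesterol and 10.55 with fatty acid, against 11.12 and 11.14 in the high and low glucose controls. Trib3, a pseudokinase induced by ATF4, had 8.80 with cholesterol and 9.67 with fatty acid, against 9.91 and 10.28 in the high and low glucose controls. Atf4 itself had 12.24 with cholesterol and 12.64 with fatty acid, against 12.48 and 12.66 in the high and low glucose controls. Ddit3, the stress factor CHOP, had 10.46 with cholesterol and 11.32 with fatty acid, against 10.31 and 10.62 in the high and low glucose controls. Asns was thus low with both lipids, Trib3 and Atf4 lowest with cholesterol, and Ddit3 highest with fatty acid.

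The scaffolds of the multisynthetase complex were followed beside its enzymes. Of the 7 enzymes of the complex 5 lay below both controls in the fatty acid library and 2 above (Rars1, and Kars1 at 0.00 after rounding). All 3 scaffolds lay above, with a median of 0.44, where 39.7% of all genes lay below and 40.4% above. Eef1e1 had 10.20 with cholesterol and 11.11 with fatty acid, against 10.57 and 10.66 in the high and low glucose controls. Aimp1 had 10.96 with cholesterol and 11.47 with fatty acid, against 11.03 and 10.94, and Aimp2 had 11.48 and 11.57, against 11.13 and 11.26, in the same order of controls. Xpot, the exporter of tRNA from the nucleus, had 10.43 with cholesterol and 10.78 with fatty acid, against 10.98 and 11.05 in the high and low glucose controls. Of 27 genes of tRNA processing and export, 15 lay above both controls in the fatty acid library and 4 below, among them Rpp25, a subunit of RNase P and MRP (0.90), and Trmt10c, a subunit of mitochondrial RNase P (0.74), both above; the shares of all genes are the same 40.4% above and 39.7% below.

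The controls differed from each other in the cytosolic set as well. All 19 cytosolic enzymes were lower in the high than in the low glucose control, with log2 differences of -0.60 to -0.03 and a median of -0.22. Over all genes 51.1% were lower, and 49.6% of the 2475 genes in the same range of signal. Of the mitochondrial enzymes 7 were lower and 8 higher (48.9% of all genes), with a median of 0.01. Vars1 was the member past 1.5-fold, as 1.11% of all genes were in that direction, and no member reached 2-fold (0.355% of all genes). Vars1 had 10.63 with cholesterol, 10.50 with fatty acid, 10.49 with OZ serum and 10.61 with LZ serum, against 10.42 and 11.01 in the high and low glucose controls, so the low glucose control stood above the 5 others. Aars1, next in size at -0.41, had 11.26 with cholesterol, 11.42 with fatty acid, 11.26 with OZ serum and 11.34 with LZ serum, against 11.16 and 11.57 in the high and low glucose controls. Of the amino acid response genes 21 of 23 were lower in the high glucose control.

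Because the control chosen moves the cytosolic set, the cholesterol comparison was read against each. Cholesterol was below the high glucose control for 13 of 19 cytosolic enzymes (median -0.17, 47.6% of all genes lower) and below the low glucose control for 17 (median -0.38, 49.6% of all genes lower). These comparisons share the cholesterol library. With the OZ and LZ serum libraries added as further comparators, 13 cytosolic enzymes were below all 4 and 2 above, against 26.4% and 32% of all genes.

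**Figure D4:**
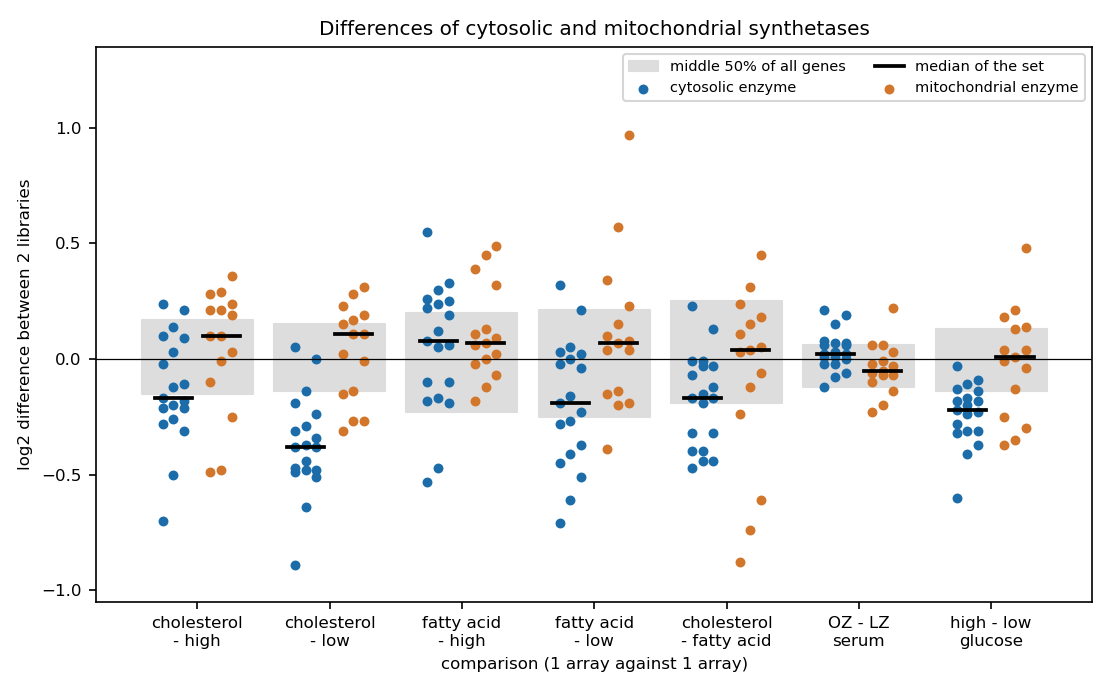
Log2 difference of each synthetase in 7 comparisons of 1 array against 1 array, blue for cytosolic and orange for mitochondrial enzymes, with the median of each set as a black bar and the middle 50% of all genes in grey. The cytosolic median is below 0 in both cholesterol comparisons with a control (-0.17 and -0.38), in fatty acid minus the low glucose control (-0.19), in cholesterol minus fatty acid (-0.17) and in high minus low glucose (-0.22), and above 0 in fatty acid minus the high glucose control (0.08) and OZ minus LZ serum (0.02), while the mitochondrial medians lie between -0.05 and 0.11.

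The serum libraries differed little in the synthetases. Between the OZ and the LZ serum library 13 cytosolic enzymes were higher and 6 lower (median 0.02), where 41.9% of all genes were higher and 58.1% lower. Of the mitochondrial enzymes 11 were lower and 4 higher (median -0.05). Differences ran from -0.23 to 0.22, and 2-fold was reached by no member and by 0.026% of all genes. Set against both controls, both serum libraries were lower for 1 cytosolic and 5 mitochondrial enzymes, against 19.7% of all genes, and higher for 0 cytosolic enzymes and 1 mitochondrial enzyme, against 8.83%.

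To compare compartments amino acid by amino acid, each cytosolic enzyme was paired with the mitochondrial enzyme for the same amino acid. This gave 16 pairs, with Eprs1 and Fars2 each used in 2 of them. The cytosolic difference was below its partner's in 13 pairs for cholesterol against the high glucose control and in 14 against the low glucose control. For fatty acid the counts were 10 and 15, for cholesterol against fatty acid 11, for high against low glucose 12, and for OZ against LZ serum 5. In cholesterol against fatty acid both partners of the histidyl, arginyl and tyrosyl pairs were lower. The differences were -0.44 and -0.88 for Hars1 and Hars2, -0.47 and -0.61 for Rars1 and Rars2, and -0.44 and -0.74 for Yars1 and Yars2. In high against low glucose these pairs ran in opposite directions, at -0.03 and 0.18, -0.23 and 0.21, and -0.37 and 0.48 in that order. Both partners of each were higher in fatty acid against the high glucose control and in OZ against LZ serum. The arginyl pair split for cholesterol against the high glucose control, and the tyrosyl pair for each lipid against the low one. The alanyl pair ran in opposite directions in cholesterol against fatty acid, with Aars1 at -0.15 and Aars2 at 0.45. The cysteinyl, glutamyl, methionyl, seryl, threonyl, tryptophanyl and both phenylalanyl pairs did so as well, some with values near 0. Farsa and Fars2 had -0.01 and 0.04, and Mars1 and Mars2 had -0.07 and 0.03, while Sars1 and Sars2 had -0.40 and 0.15. The prolyl, leucyl, asparaginyl and valyl partners shared a direction. The windows of Hars1 and Hars2 overlap each other, as described above. That of Rars2 overlapped the window of Orc3, a replication origin subunit, and those of Yars1 and Yars2 overlapped none on the opposite strand. Rars1 had no window, so the arginyl pair could not be checked in this way. The part of overlapping windows in these differences was not tested.

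**Figure D5:**
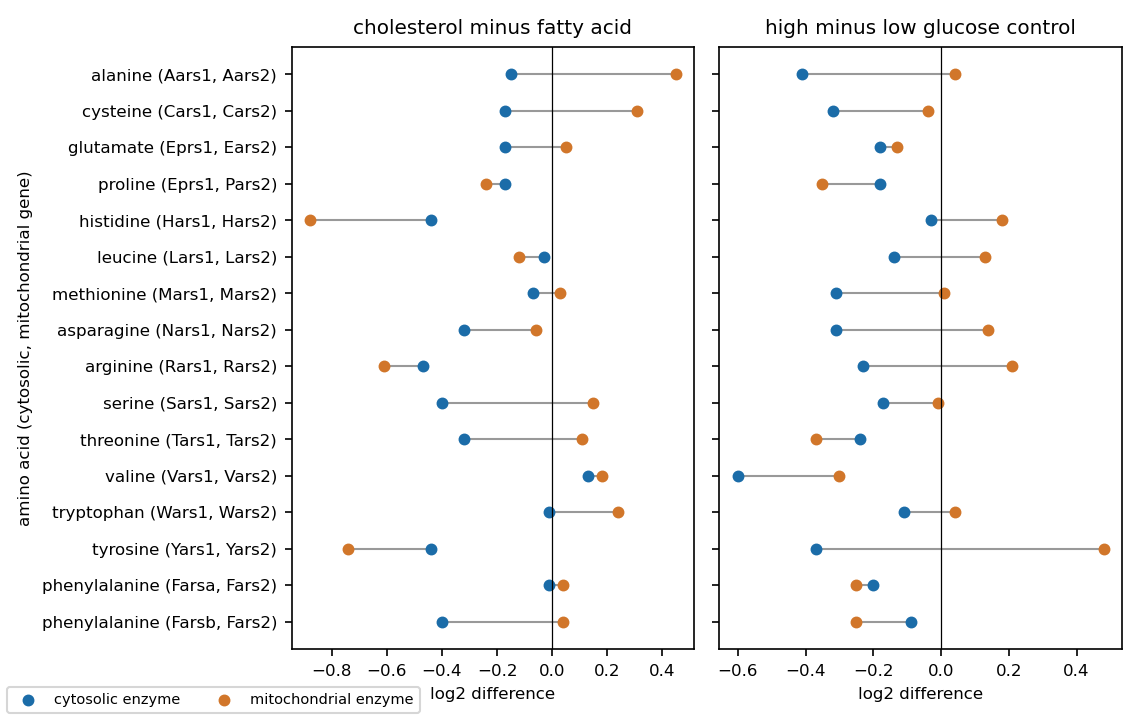
Log2 difference of the cytosolic (blue) and mitochondrial (orange) synthetase for each amino acid, joined by a line, in cholesterol minus fatty acid (left) and high minus low glucose control (right). On the left the cytosolic enzyme lies below its partner in 11 of 16 pairs and on the right in 12, and the histidyl, arginyl and tyrosyl pairs lie lowest on the left.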

How the data were processed

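Per the labels' protocols, total RNA was labelled with biotin and run on Affymetrix Rat Gene 2.0 ST chips, 6 in all. The deposited values are probe-set intensities on a linear scale for 36685 probe sets. How the probes were corrected, summarised and scaled is not given in these sources. The median intensity per array was 104.6 to 109.2, and with 1 array per group their number limits the precision.

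The deposited intensities were turned into log2 values with no offset. Genes were named from the platform annotation, using the 18511 probe sets with 1 gene, the brightest where a gene had several. Genes with a mean log2 signal of at least 6.74 (intensity 107.2), the median of all values, were kept. Groups came from the sample titles. Against 2 controls the smaller difference was used, or 0 where they disagreed. No test was possible, so counts are set beside the share of all genes, at 2-fold and 1.5-fold. Simulated data with known differences were used to check the counts. Scaling alternatives used R 4.3.3 with limma 3.58.1; the rest used Python 3.11.15, numpy 2.4.6 and pandas 2.3.3. Members at 2-fold, the 5 cytosolic and 3 mitochondrial members with the largest difference in each lipid comparison, and Eprs1, Gars1 and Kars1 are given in all libraries; Farsa, Vars1, Aars1 and the cell type markers named were added after their values were seen. The members and gene lists were chosen with earlier results of these data known.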

Additional observations from a re-analysis of the deposited data

How the results depend on the processing

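With 1 array per group no replicate could be left out. No paired analysis was possible because each group has 1 array. Of 330 alternative values for the synthetase sets 32 moved, and of 390 for named genes 25 moved, by more than 0.1 in log2 for a difference or 1.5 times for a count. Across quantile normalization, cyclic loess, centring, an offset of 32, averaged probe sets and no filter, the cytosolic enzymes lower were 13 to 14 for cholesterol against both controls, 17 for cholesterol against fatty acid and 19 for high against low glucose, and scaling moved the median of all genes by at most 0.039. At 1.5-fold in place of 2-fold, where the count was 0, there was 1 member for cholesterol, 3 for cholesterol against fatty acid and 1 for high against low glucose. The filter at 8.68 left 2 mitochondrial enzymes, of which 0 were lower for cholesterol, 1 for fatty acid, 0 for cholesterol against fatty acid, 2 for OZ against LZ serum, 1 for high against low glucose and 1 for serum against controls; the high against low glucose mitochondrial median was then -0.18 and the difference of medians, cytosolic minus mitochondrial, -0.04. Against the high glucose control alone 5 mitochondrial enzymes were lower for cholesterol and 10 for serum. Against the low glucose control alone the cholesterol library gave a cytosolic median of -0.38, a mitochondrial median of 0.11 with 6 lower and a difference of medians of -0.49; the fatty acid library gave 13 cytosolic enzymes lower, a median of -0.19 and a difference of -0.26; and the serum libraries gave 17 cytosolic enzymes lower, a median of -0.11 and 8 mitochondrial enzymes lower. Against the mean of both controls the cholesterol median was -0.28 with a difference of -0.38 and 6 mitochondrial enzymes lower, the fatty acid difference was -0.15, and serum had 9 cytosolic and 9 mitochondrial enzymes lower. Centring gave 11 cytosolic enzymes lower in OZ than in LZ serum and 2 for serum against controls. With the serum libraries as further comparators, an alternative chosen after seeing the data, 2 mitochondrial enzymes were lower for fatty acid. Leaving out Gars1 and Kars1 moved no difference of medians, the only set value computed without them. Sorting the threonyl homolog Tars3 by its older symbol was not run, since it is no member. Except for the settings that change the control, leave fewer genes or lower the threshold, the cause was not tested.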
